A study of Macaca fascicularis and Macaca mulatta and Papio anubis with 20 samples.

Results

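The subject here is the set of capture spots richest in *SST* transcripts in dorsal root ganglia of cynomolgus macaques (*Macaca fascicularis*), set against all other spots of the same tissue sections. The assay was Visium, in which RNA from a section is caught on a grid of barcoded spots and tallied by unique molecular identifiers (UMIs), one per captured molecule. Several cells, often of different kinds, can lie over one spot, so every value below belongs to regions and not to single neurons. Spots under tissue with at least 1000 UMIs were eligible, 11090 of the 21897 tissue spots in 15 sections; the whole series, which also has rhesus macaque and olive baboon sections, holds 35029 tissue spots. A spot was called SST-high when its *SST* share (SST UMIs per 10000 UMIs of the spot) was above 0 and at or above the 95th percentile of its section, which gave 563 SST-high spots and 10527 other spots. The members were therefore chosen by the measured *SST* share itself, and that gene is described without a test.

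The sections were cut from fresh frozen ganglia obtained from a commercial primate supplier. They carry 4 title codes: a female and a male in labelled batch 1, and a female and a male in labelled batch 2. The labels used here name no treatment or genotype for these groups. All sections under a code were pooled as a specimen, 4 sections each and 3 in the male of batch 2. Whether a code stands for one animal or one ganglion is not stated. Unless said otherwise, 4 values in a row are given in the order female batch 1, male batch 1, female batch 2, male batch 2.

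Somatostatin is a secreted peptide that is stored in dense-core vesicles and acts on inhibitory G protein-coupled receptors. In sensory ganglia of mice it marks a small class of unmyelinated neurons tied to itch, which also make the natriuretic peptide encoded by *NPPB* and carry receptors for interleukin-31 and oncostatin M. Other unmyelinated neurons use the peptides CGRP and substance P, while large myelinated neurons of touch and body position are rich in heavy neurofilament and, in part, parvalbumin. These classes are used below to order the genes; none was read from the spots by itself.

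*SST* was found in every section. Over the eligible spots of a section its level ran from 42.4 to 223 UMIs per 1000000 UMIs (CPM), with a median of 118, and 11.5% to 45.6% of eligible spots held at least 1 *SST* UMI. The thresholds that followed ran from 2.50 to 9.27 *SST* UMIs per 10000, with the lowest SST-high spot of each section between 2.50 and 9.31 and the highest other spot between 2.50 and 9.27, so the classes meet at the line without a gap. SST-high spots numbered 137, 181, 155 and 90 in the 4 specimens, from 14 to 62 per section. Summed over those spots, *SST* stood at 1076, 1386, 1617 and 1510 CPM against 42.3, 60.0, 53.5 and 112 CPM in the other spots. The SST-high spots thus held 53.4% of all *SST* UMIs, and the rest was spread thinly over spots outside the class.

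**Figure D1:**
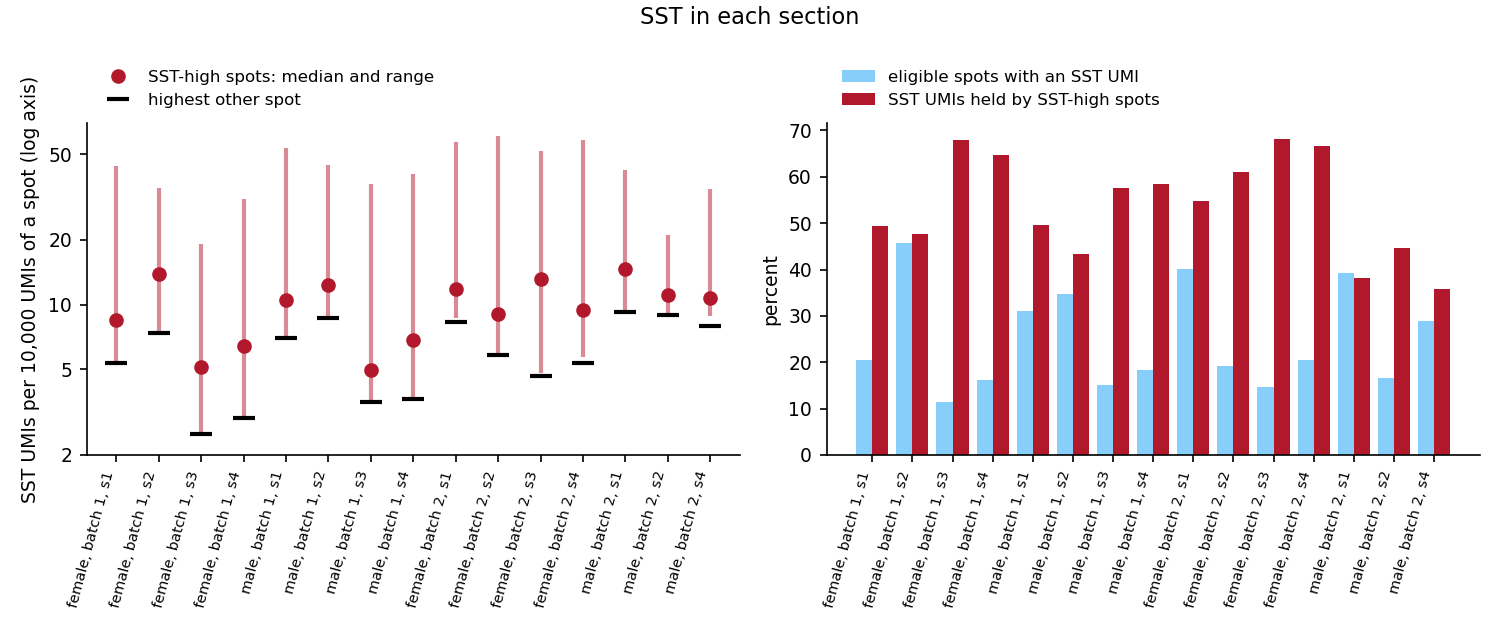
*SST* in each of the 15 sections (s1 to s4 are section numbers). Left, *SST* UMIs per 10000 UMIs of a spot on a log axis, with the median and range of SST-high spots and the highest other spot; right, the percentage of eligible spots with an *SST* UMI and the percentage of *SST* UMIs held by SST-high spots, which lies between 35.9 and 68.2.

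The SST-high class is uneven inside. Of the 563 spots, 171 rested on a single *SST* UMI and 96 on 2, while 216 held 5 or more and 119 held 10 or more. A single UMI is enough for a high share only in a shallow spot, and median UMIs per spot were 3108 in SST-high spots against 3493 in the others, lower in 10 of 15 sections. Of the SST-high spots 104 (18.5%) lay among the 25% of spots in their section with the highest share of pan-neuronal UMIs, against 2674 of the other spots (25.4%), and the share was the smaller one in 14 of 15 sections. The summed pan-neuronal genes, a check that the spots hold neurons, stood at 16026 to 20139 CPM in SST-high spots and at 17220 to 21208 CPM in the others.

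Genes that were not used to choose the spots were tested on UMIs summed per specimen and class, with the specimen as a block (edgeR's quasi-likelihood test, Benjamini-Hochberg adjustment over 9493 genes, threshold 0.05). In SST-high spots 247 genes were higher, 2.6% of those tested, and 268 were lower, 2.82%. The median log2 fold change of all tested genes was 0.01. Classes without overlap between the 4 values of each were seen upward for 158 of the 9493 genes (1.66%) and downward for 190 (2%). The largest increases were those of 2 other genes of secreted peptides, *EDN3* and *CCK*, and the artemin receptor gene *GFRA3* was also among the 10 largest, while genes of large myelinated neurons led the marker lists on the low side. The number of calls moved with the specimens, the test and thinning: 290 genes were called without the female of batch 2, 318 without the female of batch 1, and 248 with DESeq2. After thinning each spot to 1000 UMIs it was 75, of 6046 genes tested. The SST-high class was then chosen again from the thinned *SST* counts. Depth and class membership thus changed together in every test after thinning. The labels do not say how the sections of a specimen relate. The p-values and SEs come from the edgeR model, which shares information on variance across genes. They are not the spread of a gene's own 4 ratios, and they cover these specimens only. For *EDN3* the log2 ratios were 3.89, 3.49, 5.17 and 2.66 in the 4 specimens.

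*EDN3*, which encodes the peptide endothelin-3, had the largest difference of any named gene. Its level in SST-high spots was 161, 133, 333 and 230 CPM, against 10.9, 11.9, 9.24 and 36.5 CPM in other spots. The lowest SST-high specimen was above the highest of the others, and the direction was the same in 15 of 15 sections, where SST-high spots ran from 94.9 to 434 CPM (median 146) and other spots from 6.76 to 52.3 CPM (median 9.95). The fitted difference was 3.93 ± 0.18 on the log2 scale (SE, n = 4 specimens), 15.2-fold, with an edgeR adjusted p of 1.69e-21. It stood on 561 UMIs in SST-high spots and 712 in all others, although the other spots are many more.

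*CCK*, the gene of the neuropeptide cholecystokinin, followed closely. SST-high spots held 127, 198, 229 and 105 CPM and other spots 13.4, 18.7, 13.6 and 23.5 CPM, with no overlap between the classes and the same direction in 15 of 15 sections. The difference was 3.41 ± 0.15 on the log2 scale (SE, n = 4 specimens; edgeR adjusted p = 9.32e-23), or 10.6-fold. By spots, 32.7% of SST-high spots had an *EDN3* UMI (exact 95% interval 28.8% to 36.7%) and 31.1% a *CCK* UMI (27.3% to 35.1%), and neither gene was seen in every SST-high spot. In the other spots these shares were 5.39% and 6.31%. In the 25% of other spots poorest in pan-neuronal RNA, 2636 spots with a median of 1701 UMIs, they were 2.85% and 3.41%. The shares were also taken with every spot thinned to 1000 UMIs and its class left as first chosen. The *EDN3* shares were then 13.1%, 1.42% and 1.48%, and the *CCK* shares 12.8%, 1.55% and 1.48%, in the same order of classes. These intervals cover counting error only.

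*GFRA3*, the receptor subunit for the growth factor artemin, stood at 163, 149, 205 and 134 CPM in SST-high spots and at 45.8, 46.2, 61.9 and 76.3 CPM in other spots. The classes did not overlap, and the difference was 1.62 ± 0.11 (SE, n = 4 specimens; edgeR adjusted p = 2.00e-15), with SST-high spots above the others in 14 of 15 sections. *SCG2*, a granin of dense-core vesicles, was at 677, 624, 294 and 289 CPM against 251, 248, 130 and 176 CPM, a difference of 1.23 ± 0.08 (SE; edgeR adjusted p = 5.45e-16) that held in 15 of 15 sections. For both genes the male of batch 2 showed the smallest step. The other genes with the largest upward differences were *C1QL2* (2.19), *TMEM255B* (1.48), the retinol-binding protein gene *RBP7* (1.42), *GPAT2* (1.25), the sphingosine-1-phosphate receptor gene *S1PR1* (1.24) and *PHACTR1* (1.16), all on the log2 scale. Being higher in all 4 specimens was a condition for naming these genes. They were higher in 12 to 15 of 15 sections, but at low levels: *C1QL2* rested on 56 UMIs in SST-high spots and *S1PR1* on 66. *GPAT2* was not called without the female of batch 2, and *RBP7* and *PHACTR1* were not called after thinning.

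**Figure D2:**
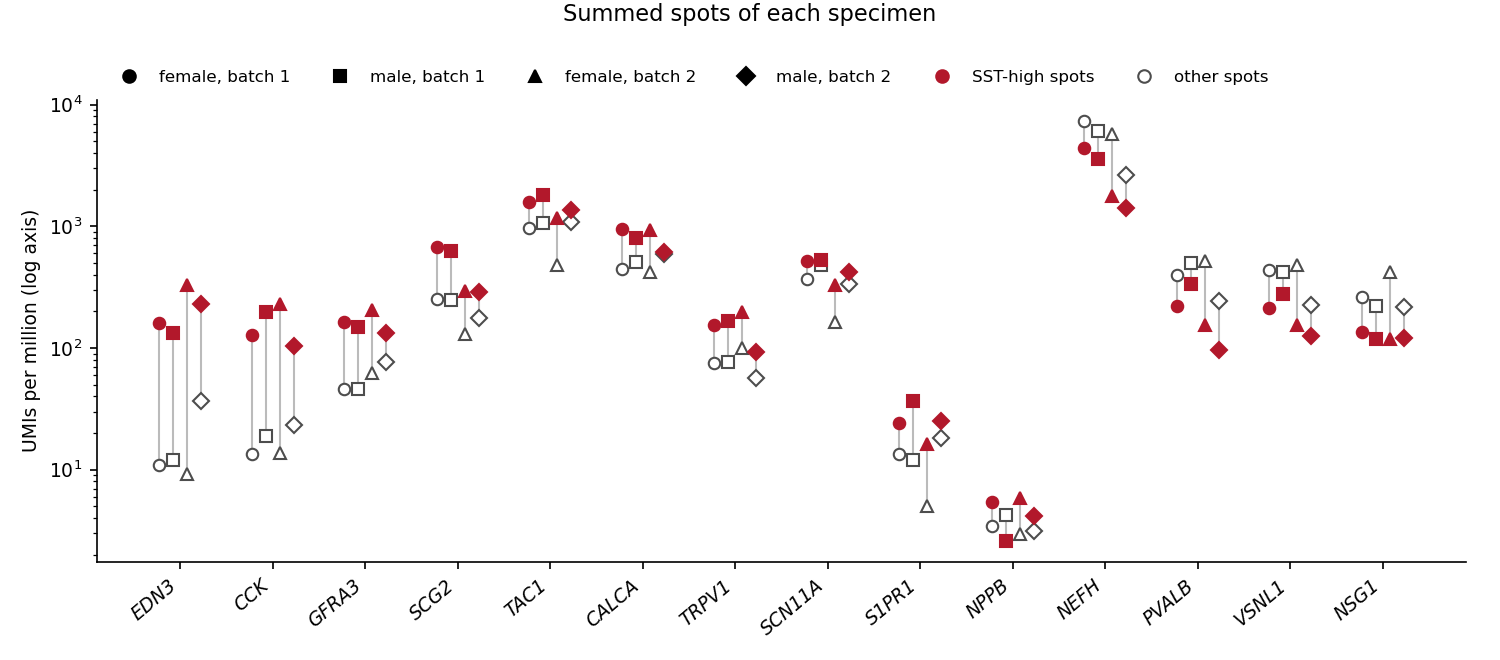
Levels of 14 genes, in CPM on a log axis, in summed SST-high spots (filled) and other spots (open) of each specimen, joined by a line; symbols mark the 4 specimens. *EDN3* and *CCK* lie far apart between the classes in all 4 specimens, *NPPB* stays within 2.62 to 5.83 CPM in both, and *NEFH* and *PVALB* are lower in SST-high spots.

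Among the genes of mouse itch neurons the picture was mixed. Of 12 listed pruriceptor markers 5 were tested, and 3 were higher in SST-high spots and none lower: the kinase gene *JAK1*, which serves cytokine receptors, *S1PR1*, and the phospholipase gene *PLCB3*. *JAK1* was at 309, 358, 426 and 310 CPM against 204, 207, 203 and 244 CPM, a difference of 0.75 ± 0.08 (SE, n = 4 specimens; edgeR adjusted p = 4.45e-09) without overlap, but it was not called after thinning. *PLCB3* differed by 0.37 ± 0.10 (SE; edgeR adjusted p = 0.0208), and its call was lost with DESeq2, after thinning and without any one of the females or the male of batch 2. *NPPB*, the peptide partner of *SST* in mouse, was near the limit of detection in both classes, at 5.42, 2.62, 5.83 and 4.18 CPM against 3.45, 4.22, 2.94 and 3.15 CPM. Its difference of 0.40 ± 0.50 (SE; edgeR adjusted p = 0.79) rested on 12 UMIs in SST-high spots, and 2.13% of these spots had a UMI (exact 95% interval 1.11% to 3.69%) against 1.69% of other spots; a difference was not detectable at this depth.

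The receptor genes of the list were rare. *OSMR*, a subunit shared by the oncostatin M and interleukin-31 receptors, was at 8.13, 6.54, 10.5 and 12.6 CPM against 4.25, 5.58, 4.38 and 5.52 CPM. The classes did not overlap, yet the difference of 0.87 ± 0.38 (SE, n = 4 specimens) missed the threshold (edgeR adjusted p = 0.21, 23 UMIs in SST-high spots); it passed when every spot with an *SST* UMI was taken. *IL31RA* had 4 UMIs in SST-high spots, all in the female of batch 2, against 9 in all other spots, too few to test. *CYSLTR2*, another receptor gene of the list, was seen in a smaller share of SST-high spots than of other spots and was not tested either. A UMI of it was seen in 1 of 563 SST-high spots (0.178%) and in 92 of 10527 other spots (0.874%). The exact interval of the first share, 0.0045% to 0.986%, takes in the second. With a UMI in only 1 SST-high spot, at most 1 section could show the higher share there, so sections cannot show a direction. *HRH1* and *NTS* had no UMI in any SST-high spot, a count of 0 that by the exact interval allows up to 0.653% of such spots to have a UMI. Of the 10527 other spots 1 had an *HRH1* UMI and 26 (0.247%) an *NTS* UMI. Both shares lie within that limit, so the counts of 0 show no difference between the classes. The interval covers counting error only and sets no limit on spots whose cells express the gene. From the wider list of itch and inflammatory signalling, 7 genes were tested and the prostaglandin D2 receptor gene *PTGDR* was higher (0.99 ± 0.18, SE; edgeR adjusted p = 0.00012) in 3 of 4 specimens: 67.8, 69.3, 12.8 and 33.5 CPM against 28.6, 35.7, 3.66 and 38.4 CPM. That call was lost after thinning.

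Most of the tested peptide genes were higher. Of 5 tested neuropeptide genes other than *SST*, 4 were higher: *CCK*, *TAC1*, which encodes substance P, and the CGRP genes *CALCA* and *CALCB*; the list's median was 0.78 on the log2 scale beside 0.01 over all genes tested. *TAC1* was at 1581, 1816, 1160 and 1368 CPM against 975, 1062, 481 and 1076 CPM, a difference of 0.78 ± 0.08 (SE, n = 4 specimens; edgeR adjusted p = 9.73e-11). *CALCA* was at 945, 798, 926 and 619 CPM against 446, 511, 421 and 589 CPM, and *CALCB* differed by 0.57 ± 0.07 (SE; edgeR adjusted p = 1.07e-08). Unlike *EDN3* and *CCK*, these genes were abundant outside the class too: 83.7% of SST-high spots and 72.1% of other spots had a *TAC1* UMI. For the remaining peptide tested, *PENK*, the enkephalin precursor gene, 23 of 29 UMIs in SST-high spots lay in section 4 of the female of batch 1; its difference of 0.55 was not called and fell to -1.52 without that section.

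Genes that pack and process peptides did not share one direction. Of 12 tested dense-core vesicle and processing genes, *SCG2* and *SCG3* were higher, and the carboxypeptidase gene *CPE* and chromogranin A (*CHGA*) were lower; the list's median was 0.04. *SCG3* was at 877, 853, 848 and 1067 CPM against 671, 714, 478 and 783 CPM (0.47 ± 0.07, SE, n = 4 specimens; edgeR adjusted p = 2.60e-06). *CPE*, which trims peptide precursors, was at 385, 374, 269.5 and 368 CPM against 465, 419, 429 and 446 CPM (-0.36 ± 0.08, SE; edgeR adjusted p = 0.0015). Both the *CPE* and the *CHGA* differences lost their call after thinning, while those of *SCG2* and *SCG3* kept it. The convertase gene *PCSK1* (0.55, edgeR adjusted p = 0.29) and the amidating enzyme gene *PAM* (0.18, edgeR adjusted p = 0.21) were not called.

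Markers of small, unmyelinated pain neurons gave calls in the same direction; their lists share genes with the peptide list and with each other. Of 9 tested peptidergic markers 5 were higher (*GFRA3*, *CALCA*, *TAC1*, *CHRNA3* and *CALCB*) and none was lower. Of 6 tested non-peptidergic markers 4 were higher, among them *GNA14*, *MRGPRX1* and *SCN11A*, and none was lower. The channel list gave *TRPV1*, the heat and capsaicin receptor gene, and *SCN11A*, the sodium channel NaV1.9 gene, as higher and *PIEZO2*, the touch channel gene, as lower, of 8 tested. *TRPV1* was at 156, 166, 196 and 92.0 CPM against 75.9, 77.1, 99.4 and 56.2 CPM, a difference of 1.00 ± 0.10 on the log2 scale (SE, n = 4 specimens; edgeR adjusted p = 8.23e-11). The level was higher in each specimen, although the classes overlap across specimens. *SCN11A* was at 521, 531, 333 and 418 CPM against 366, 483, 165 and 337 CPM (0.49 ± 0.09, SE; edgeR adjusted p = 8.60e-05). The calls of *MRGPRX1* and *PIEZO2* lay close to the threshold. *MRGPRX1*, an itch receptor gene, differed by 0.68 with an edgeR adjusted p of 0.0496, and *PIEZO2* by -0.53 with 0.0479; thinning turned *PIEZO2* to 0.027, and leaving out any one specimen ended the *MRGPRX1* call. *SCN9A* was not called (0.24, edgeR adjusted p = 0.57).

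The genes that were lower were led among the lists by those of large myelinated neurons. Of 10 tested A-fibre and proprioceptor markers 4 were lower (*VSNL1*, *PVALB*, *NEFH* and *SPP1*) and none was higher; the list's median was -0.79. *NEFH*, the heavy neurofilament gene, was at 4377, 3547, 1764 and 1418 CPM in SST-high spots and at 7388, 6074, 5785 and 2648 CPM in other spots, lower in 15 of 15 sections. The difference was -1.05 ± 0.08 (SE, n = 4 specimens; edgeR adjusted p = 1.00e-13), or 2.06-fold lower. *PVALB*, which encodes the calcium buffer parvalbumin, was at 222, 334, 154 and 96.2 CPM against 397, 495, 516 and 243 CPM (-1.05 ± 0.11, SE; edgeR adjusted p = 3.67e-10). The light neurofilament gene *NEFL* was lower too (-0.76 ± 0.07, SE; edgeR adjusted p = 6.86e-11), though not by DESeq2, and peripherin (*PRPH*), the filament of small neurons, was not called (0.10 ± 0.05, SE; edgeR adjusted p = 0.37). Among 14 pan-neuronal genes 1 was higher (*INA*, 0.40) and 2 were lower (*NSG1*, -1.21, and *SNAP25*, -0.59).

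The receptors for nerve growth factors were split. *RET*, the signalling subunit that pairs with *GFRA3*, was higher (0.31 ± 0.08, SE, n = 4 specimens; edgeR adjusted p = 0.0094), and *NGFR*, the low-affinity neurotrophin receptor gene, was lower (-0.37 ± 0.07, SE; edgeR adjusted p = 0.00034). The *RET* call was lost with DESeq2, after thinning and without either female. None of 10 tested sensory transcription factor genes was called by edgeR or DESeq2 (1 at an unadjusted edgeR p under 0.05). DESeq2 gave no adjusted p for 3 of these 10, so it could not call them. Of the genes for somatostatin's own receptors *SSTR1*, *SSTR2* and *SSTR5* had 0 UMIs in both classes. Of 4 tested genes of the receptor and signalling list *GNAI2*, an inhibitory G protein subunit gene, was higher (0.28, edgeR adjusted p = 0.041), in 3 of 4 specimens, with a call that 17 of 33 alternatives lost.

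**Figure D3:**
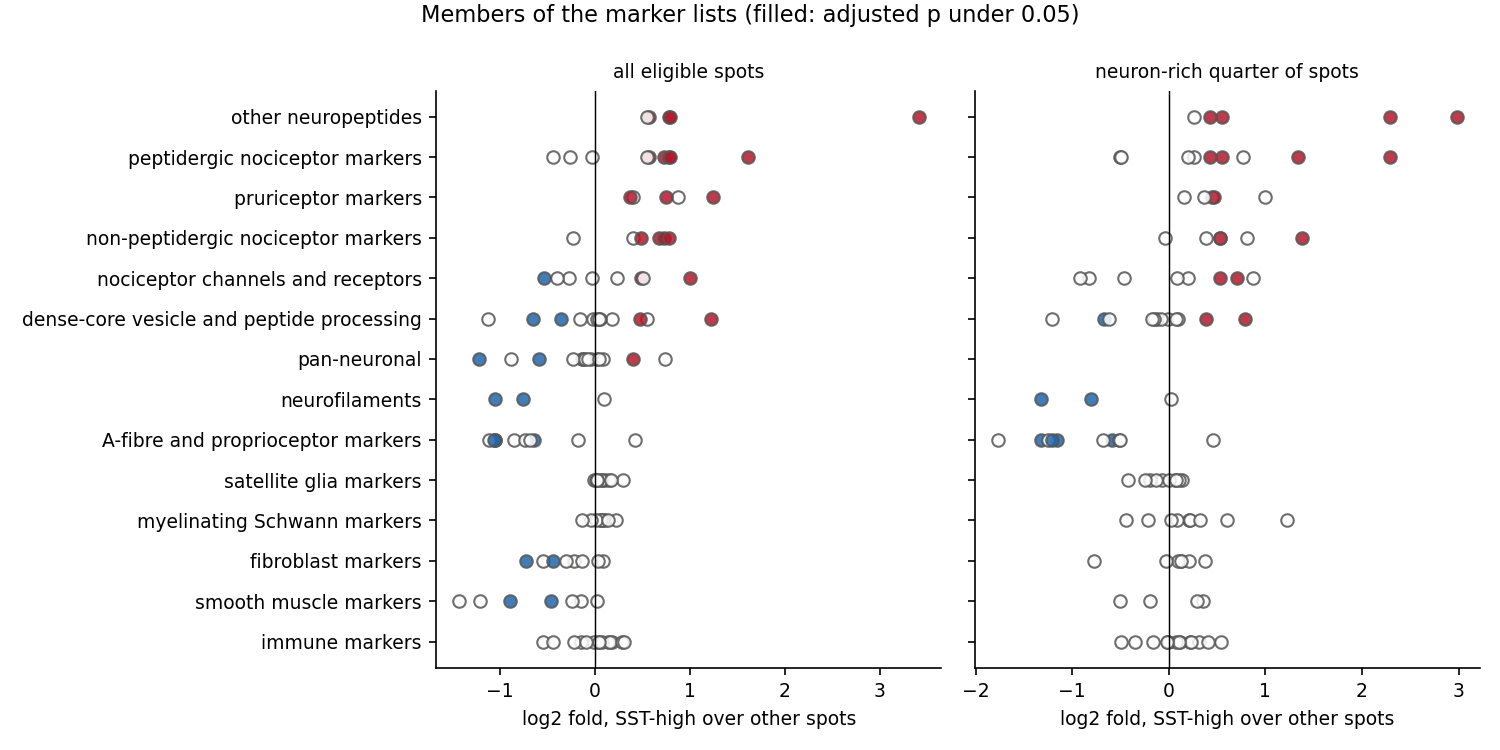
Log2 fold change, SST-high over other spots, of each tested member of 14 gene lists, in all eligible spots (left) and in the 25% of spots richest in pan-neuronal UMIs (right, without the pan-neuronal list). Filled points passed an adjusted p of 0.05; the filled points of the neuropeptide, pruriceptor and peptidergic lists lie to the right of 0, those of the neurofilament and A-fibre lists to the left, and satellite glia, myelinating Schwann and immune lists have none.

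Single genes with the largest downward differences were scarce ones. *CPZ*, a carboxypeptidase gene, had 3 UMIs in SST-high spots against 326 in others, a ratio of 0.192 with a counting interval of 0.0395 to 0.57. *TNIP3*, *TTC39A*, *CNTNAP4*, *TMEM108*, *CCDC172*, *ZNF585A*, *SYT12* and *ERMP1* differed by -2.15 to -1.38 on the log2 scale with 4 to 15 UMIs each in SST-high spots. Being lower in 4 of 4 specimens was a condition for naming these genes. *CPZ*, *TNIP3*, *CNTNAP4*, *TMEM108*, *ZNF585A* and *SYT12* lost their call when section 1 of the female of batch 2 was left out. *PTH1R*, the parathyroid hormone receptor gene, stood on more, with 23 UMIs against 1448 and a difference of -1.59 ± 0.29 (SE, n = 4 specimens; edgeR adjusted p = 0.00012), lost after thinning.

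Markers of other cell types gave calls in some lists and none in others. By edgeR and by DESeq2 none was called for satellite glia (0 of 10, 2 at an unadjusted edgeR p under 0.05), myelinating Schwann cells (0 of 9, 0 unadjusted), endothelium (0 of 5, 0 unadjusted) or immune cells (0 of 14, 2 unadjusted). DESeq2 gave no adjusted p for 1 of the immune genes. The summed levels overlapped between classes: 8435 to 10034 against 7486 to 9856 CPM for satellite glia and 1502 to 4078 against 1241 to 4358 CPM for myelin. Of 8 tested fibroblast genes *MGP* (-0.73) and *IGFBP6* (-0.44) were lower, and of 7 smooth muscle genes *ACTA2* (-0.89) and *TAGLN* (-0.46) were lower. Over all 9493 genes tested 2.82% were lower by edgeR. DESeq2 called none of these 4 genes. Summed smooth muscle genes were at 105 to 368 CPM in SST-high spots and at 143 to 488 CPM in others, lower in 4 of 4 specimens; their part in the neuronal differences was not tested. The immediate early gene *FOS* was also lower (-0.54 ± 0.11, SE, n = 4 specimens; edgeR adjusted p = 0.00076), though not by DESeq2, after thinning or without the female of batch 1. Fewer cells of a type in a spot and less RNA per cell cannot be told apart in such sums.

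Within the SST-high class, gene levels went with the number of *SST* UMIs in a spot, which is a description of pooled spots without a test. *EDN3* was at 32.7 CPM in spots with 1 *SST* UMI, 99.4 CPM with 2 to 4, 242 CPM with 5 to 9 and 309 CPM with 10 or more. *CCK* ran through 36.0, 82.0, 152 and 278 CPM, and *GFRA3* through 36.0, 113, 168 and 234 CPM. In the spots of a single *SST* UMI these levels rested on 10 *EDN3*, 11 *CCK* and 11 *GFRA3* UMIs, pooled over specimens. The other spots had *GFRA3* at 57.5 CPM, which is a mean over 4 specimens and so an unlike measure. Whether the 2 *GFRA3* levels differ was not tested. *TAC1* ran from 946 to 1670 CPM with 5 to 9 UMIs and stood at 1571 CPM in the last bin. *NEFH* ran the other way, from 5274 to 2454 CPM, as did the connective tissue gene *DCN*, from 1302 to 190 CPM. Depth went along with these bins, with median UMIs per spot of 1600, 2702.5, 4843 and 8412; the bins also draw unequally on the sections, and the part of either in these trends was not tested.

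**Figure D4:**
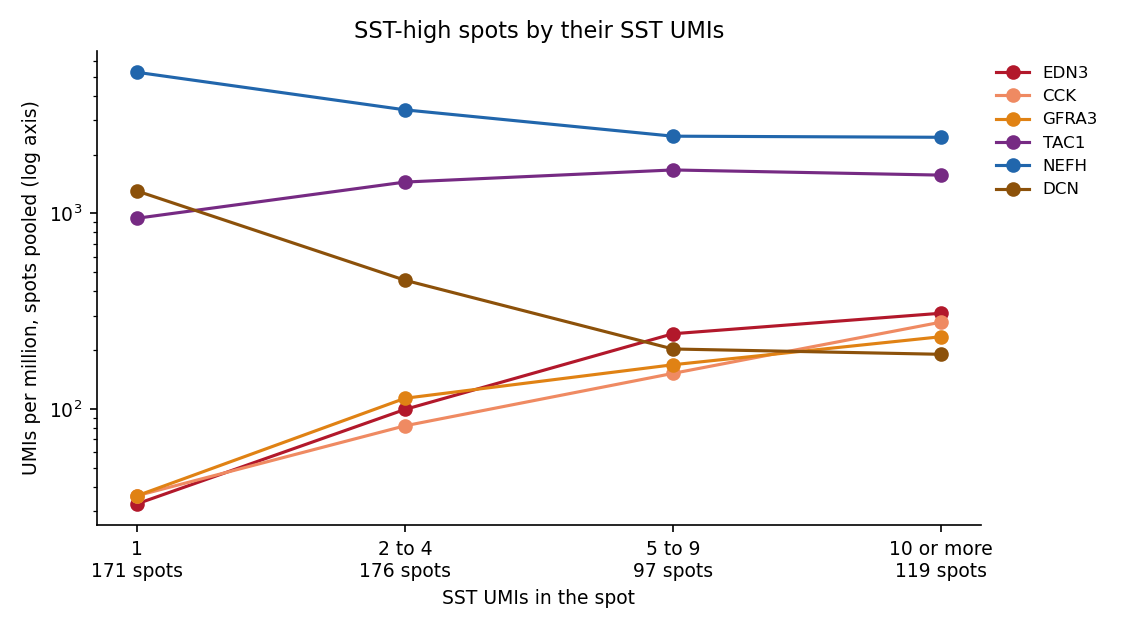
Levels of 6 genes, in CPM on a log axis, in SST-high spots pooled by the number of *SST* UMIs they held. *EDN3*, *CCK* and *GFRA3* climb from 32.7, 36.0 and 36.0 CPM in the 171 spots with 1 UMI to 309, 278 and 234 CPM in the 119 spots with 10 or more, while *DCN* and *NEFH* fall.

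The second comparison kept only the 25% of eligible spots in each section with the highest share of pan-neuronal UMIs, here called neuron-rich, which sets SST-high spots beside other spots that also hold much neuronal RNA. It had 104 SST-high and 2674 other spots, with 656424 UMIs in the SST-high sums, fewer than in the first. Of 9212 genes 49 were higher (0.532%) and 108 were lower (1.17%) by the same edgeR test. With the pan-neuronal genes counted in, the classes did not overlap upward for 134 of 9226 genes (1.45%) and downward for 314 (3.4%). *EDN3* and *CCK* again led, *MRGPRX1* was among the 10 leading genes, and the neurofilament and A-fibre genes were again lower. Without the female of batch 2 the number of calls fell from 157 to 45; it was 98 without the male of batch 1, 97 without section 3 of the female of batch 1, 50 with DESeq2 and 7 after thinning.

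*EDN3* in these neuron-rich spots was at 145, 87.4, 218 and 159 CPM against 11.8, 12.3, 8.88 and 28.6 CPM, without overlap (3.55 ± 0.25, SE, n = 4 specimens; edgeR adjusted p = 4.47e-42). *CCK* was at 92.0, 94.6, 154 and 35.4 CPM against 11.8, 13.4, 13.1 and 15.3 CPM (2.98 ± 0.28, SE; edgeR adjusted p = 2.84e-23), again without overlap. These 2 genes stood on 105 and 72 UMIs in the SST-high spots and kept their call in every alternative run for this comparison that could test them. *GFRA3* differed by 1.34 ± 0.18 (SE; edgeR adjusted p = 2.00e-10) and *RBP7* by 1.48 ± 0.36 (SE; edgeR adjusted p = 0.0045). *MRGPRX1* was at 26.3, 58.2, 98.2 and 17.7 CPM against 19.1, 23.3, 23.6 and 13.3 CPM (1.37 ± 0.32, SE; edgeR adjusted p = 0.0026), with a call that, like that of *RBP7*, was lost without the female of batch 2. *C1QL2*, with 4 UMIs left, was not called here (0.27, edgeR adjusted p = 0.97).

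The remaining upward genes of the neuron-rich spots included the interferon-induced genes *OAS1* and *MX2*. *OAS1* was at 52.5, 29.1, 55.5 and 124 CPM against 20.9, 25.4, 21.3 and 37.3 CPM (1.16 ± 0.32, SE, n = 4 specimens; edgeR adjusted p = 0.018), and *MX2* at 26.3, 36.4, 93.9 and 195 CPM against 23.8, 26.1, 26.1 and 67.2 CPM (1.13 ± 0.28, SE; edgeR adjusted p = 0.0065). Both had passed over all eligible spots too, at 0.97 and 1.03. *PYCR1* (1.30), *MPPED2* (1.04) and *SYNGR4* (0.87) completed the group. The calls of all 5 were lost without the female of batch 2. On the low side *TTC39A* and *PTPN2* had no UMI in neuron-rich SST-high spots. A floor of 3 UMIs over these spots put *TTC39A* at least 2.75-fold and *PTPN2* at least 2.69-fold lower, bounds that cover counting error only. Over all SST-high spots *TTC39A* had 8 UMIs and *PTPN2* 28. In neuron-rich spots 7 of 30 alternatives lost the *TTC39A* call. For *PTPN2* 11 of 32 lost it and 1 reversed the direction. *OTOS*, *CNFN*, *NT5C1B*, *BCAT1*, *HOPX*, *FGF12*, *ELMOD1* and *TLCD3B* differed by -1.51 to -1.41 on the log2 scale. *BCAT1*, a branched-chain amino acid enzyme gene, had 24 UMIs against 2000 (-1.48 ± 0.27, SE; edgeR adjusted p = 1.18e-05). Of these 10 downward genes, only *NT5C1B* was still called without the female of batch 2, and *TTC39A* then had too few UMIs to test. The *NT5C1B* call was itself lost in 18 of 35 alternatives, among them without the female and without the male of batch 1.

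By list, the neuron-rich spots gave fewer calls. Of 5 tested neuropeptide genes 4 were higher: *CCK*, *TAC1* (0.43), *CALCA* (0.55) and *PENK*. The last differed by 2.29 (edgeR adjusted p = 3.30e-05) with 23 of its 25 UMIs in section 4 of the female of batch 1, and by -0.96 without that section. Of the pruriceptor markers only *JAK1* passed (0.47, edgeR adjusted p = 0.036), a call that 22 of 36 alternatives lost, and *NPPB* had 4 UMIs. Of 6 non-peptidergic markers *MRGPRX1* and *SCN11A* (0.53) were higher, and of 8 channel genes *SCN11A* and *TRPV1* (0.70). The calls of *TAC1*, *TRPV1* and *SCN11A* were lost without the female of batch 2. Neurofilament genes *NEFH* (-1.32 ± 0.09, SE, n = 4 specimens; edgeR adjusted p = 7.27e-42) and *NEFL* (-0.81) were lower, with *PRPH* at 0.02 and not called. Of 10 A-fibre markers 4 were lower (*VSNL1*, *NEFH*, *PVALB* and *SPP1*), with a list median of -0.92 beside -0.04 over all genes tested. No fibroblast, smooth muscle, satellite glia, myelinating Schwann, endothelial or immune gene was called in these spots by edgeR. At an unadjusted edgeR p under 0.05 there were 1 fibroblast and 2 immune genes. DESeq2 called none either, but it gave many of them no adjusted p and could not call those. Without one were 2 of 7 fibroblast, 4 of 4 smooth muscle and 4 of 10 satellite glia genes. The same held for 5 of 9 myelinating Schwann, 3 of 4 endothelial and 7 of 14 immune genes.

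The spatial arrangement of the spots was not part of the rule. Among the eligible immediate neighbours of an SST-high spot on the grid, 12.6%, 10.2%, 10.3% and 6.00% were themselves SST-high in the 4 specimens, against 4.88%, 4.89%, 4.81% and 5.25% of the neighbours of other spots. The share was higher in 4 of 4 specimens and in 12 of 15 sections, by a mean of 4.82 ± 2.91 percentage points (SD, n = 4 specimens). The exact sign-flip permutation test (2-sided) gave p = 0.13, the smallest value that 4 specimens allow, so the design cannot pass 0.05. In the male of batch 2 the difference was 0.753 points. At the second ring of neighbours the mean difference was 1.5 points. On average 9.78% of the neighbours of an SST-high spot were in the class, against 4.96% of the neighbours of other spots.

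Levels of *EDN3* and *CCK* around the SST-high spots fell off within one grid step. The drop of *SST* itself at that step follows from the rule, since spots next to SST-high ones lie below the threshold, and is only described. *SST* was at 1398 ± 234 CPM in SST-high spots, 101 ± 44.6 CPM in other spots next to them, 68.8 ± 29.0 CPM one step further and 53.5 ± 27.0 CPM beyond (mean ± SD, n = 4 specimens). *EDN3* followed at 214 ± 88.7, 26.7 ± 20.7, 18.8 ± 16.6 and 12.8 ± 8.51 CPM, and *CCK* at 165 ± 58.2, 24.9 ± 4.14, 17.2 ± 5.35 and 14.5 ± 4.88 CPM. In all 4 specimens the spots next to SST-high spots had more *EDN3* and more *CCK* than those beyond, by 2.09-fold and 1.72-fold in the means. *NEFH* rose with distance, from 2777 ± 1417 CPM in SST-high spots to 4516 ± 2049 CPM next to them and 5895 ± 2072 CPM beyond, and was lower next to SST-high spots than beyond in all 4 specimens. *PVALB* ran from 202 ± 102 CPM through 349 ± 126 CPM to 445 ± 144 CPM. Pan-neuronal genes stayed close to level, at 17516 ± 1826, 18597 ± 2094, 18604 ± 2066 and 18161 ± 1827 CPM.

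**Figure D5:**
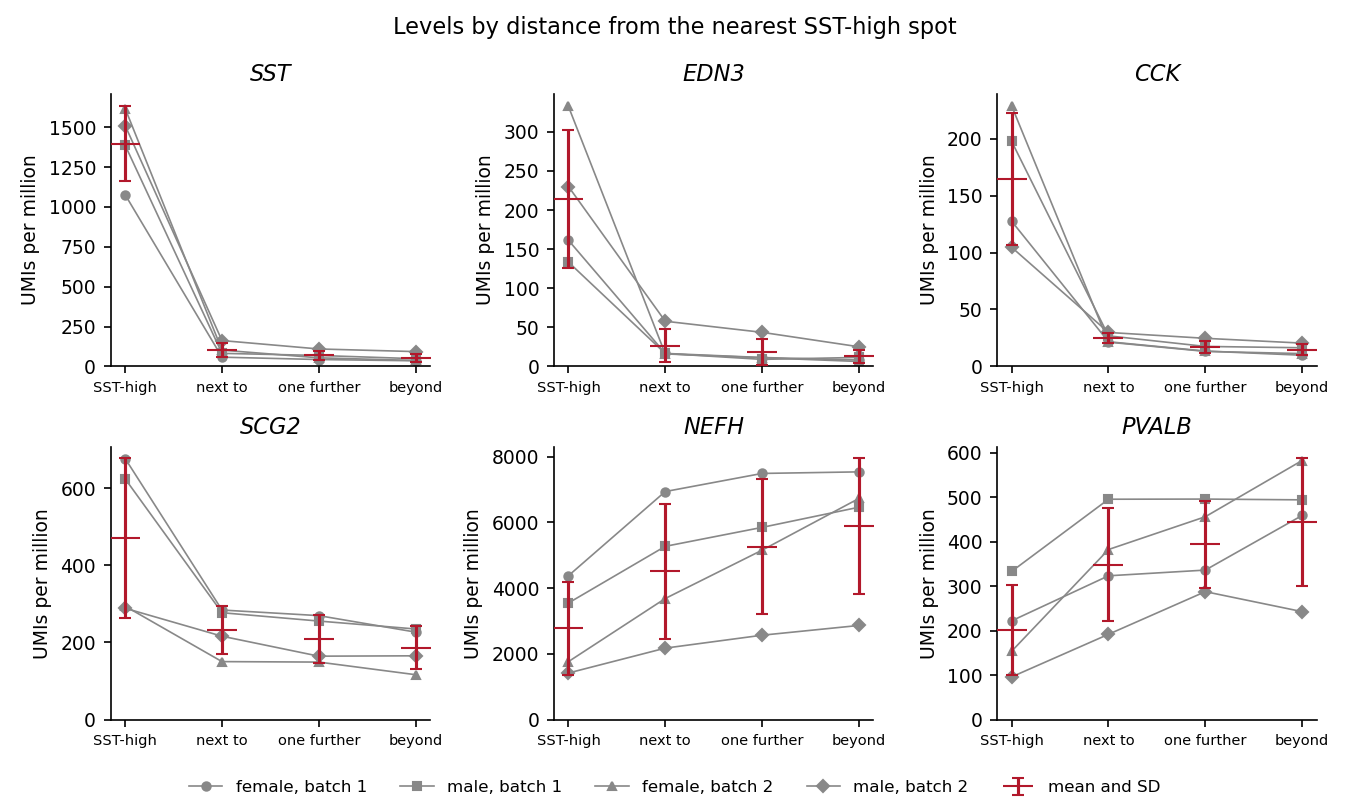
Levels of 6 genes, in CPM, in SST-high spots, in other spots next to them, one step further and beyond; grey symbols are the 4 specimens and red bars the mean and SD. *EDN3* and *CCK* drop within one step, *SCG2* drops less, and *NEFH* and *PVALB* rise with distance. The drop of *SST* at that step follows from the rule.

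The authors' deposited table gives Moran's I, a score of likeness between neighbouring spots that is near 0 for a scattered gene, with its own p-values. For *SST* it ranged from 0.0018 to 0.172 over 16 sections (median 0.0504), with an authors' adjusted p under 0.05 in 13. *EDN3* (median 0.0185) passed in 7 sections and *CCK* (median 0.0158) in 6, and *NPPB* (median -0.00097) in 2 sections. In the authors' deposited table *TAC1* (median 0.214) and *NEFH* (median 0.283) passed in all 16.

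The contrast between SST-high and other spots was also set side by side between batches and sexes, with a term for the difference in the same edgeR model. Between batches the log2 ratio was higher in batch 2 for 4 genes (0.0421% of 9493) and lower for 13 (0.137%). Batch holds different specimens and different versions of the authors' counting software, so these cannot be told apart. *NEFH* was lower in SST-high spots of all specimens, with log2 ratios of -0.76 and -0.78 in batch 1 and -1.71 and -0.90 in batch 2. The fitted difference was -0.61 ± 0.12 (model SE, 2 specimens a batch, edgeR adjusted p = 0.0047). The male of batch 2, at -0.90, lay closer to batch 1 than to the female of batch 2. The model SE is not the spread between these 2 specimens. *PVALB* was also lower in all specimens, with a difference of -0.98 ± 0.17 (model SE, edgeR adjusted p = 0.00074). *PCP4*, a calmodulin-binding protein gene, was higher in SST-high spots of batch 1 (ratios 1.13 and 1.34) and lower in those of batch 2 (0.416 and 0.647), a difference of -1.38 ± 0.14 (SE; edgeR adjusted p = 3.07e-11). *RGS4*, a brake on G protein signals, differed by 0.76 and *LAPTM4B* by -0.92. No gene was called after thinning (240 at an unadjusted edgeR p under 0.05), and 2 were called without section 1 and 3 without section 2 of the female of batch 2.

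Between sexes the ratio was higher in females for 1 gene (*EDN3*, 0.0105% of those tested) and lower for 1 (*OTOS*, 0.0105%). *EDN3* in SST-high over other spots had ratios of 14.8 and 36.0 in the females and 11.2 and 6.31 in the males, a difference of 1.48 ± 0.28 on the log2 scale (SE, 2 specimens a sex; edgeR adjusted p = 0.036). *OTOS* had ratios of 0.428 and 0.246 in the females and 0.985 and 0.687 in the males (-1.58 ± 0.28, SE; edgeR adjusted p = 0.017). These SEs are those of the model, not the spread between the specimens of a sex. With 2 specimens per sex, sex and specimen cannot be told apart. Neither gene was called without section 2 of the female of batch 2, nor without section 4 of the male of batch 2.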

How the data were processed

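The deposited matrices hold UMI counts per gene and spot, made by the authors with Space Ranger 2.0.0 in batch 1 and 2.1.0 in batch 2, per the file headers; the submitters' processing notes name the build Mmul_10, while the feature identifiers carry the Ensembl prefix of *M. fascicularis*. Of 22000 features 15068 have a symbol; the others stayed in totals and tests. Moran's I is a score deposited by the authors per gene and section, with a p-value and adjusted p-value beside it, and was only described. The spots of 1 of the 16 *M. fascicularis* sections, section 3 of the male of batch 2, were not analysed here.

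Counts were summed per specimen and class. In the thinned fits the classes and the neuron-rich spots were chosen again from the thinned counts. Genes with at least 50 UMIs (20 in neuron-rich spots), both classes together, in 3 of 4 specimens were tested with edgeR 4.0.16 (TMM, quasi-likelihood, specimen as block); DESeq2 1.42.0 and limma-voom (limma 3.58.1) were alternatives. The block rests on both classes coming from the same sections. The SE is the absolute log2 fold change over the root of the F statistic of that model, not the spread of the specimens' ratios. CPM is per 1000000 UMIs of the summed spots. SST-high spots held 737560, 764513, 857000 and 239026 UMIs in the 4 specimens. No 2 sections of a specimen were the same library: in 21 such pairs chi-square over its degrees of freedom was at least 3.62, using genes that reach 20 counts. Doublet calling does not apply to spots, and barcodes name grid positions that recur on each slide. Named genes are, per contrast, the 10 with the largest change each way among those called and of one direction in 4 of 4 specimens, up to 6 members of each list, and 5 per difference between batches or sexes. Further members of the pruriceptor, vesicle and channel lists were also named. The class, the lists and the tests were chosen with earlier results of these data known. Fits were tested on simulated data. C-LTMR, adipocyte, mast cell and non-myelinating Schwann lists gave 0 of 2, 0 of 2, no tested gene, and 2 higher (*CHL1*, *L1CAM*) and 1 lower (*NGFR*) of 5.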

Additional observations from a re-analysis of the deposited data

Results flagged for a closer look

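*EDN3* stood out between sexes, with a difference of the contrast of 1.48 (log2, female minus male), and *OTOS* with -1.58. Between batches (batch 2 minus batch 1) the contrast differed for *PCP4* by -1.38, for *PVALB* by -0.98, for *RGS4* by 0.76, for *LAPTM4B* by -0.92 and for *NEFH* by -0.61, each by the test of the difference itself.

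Of 78 groups of 4 values examined, 8 held one value far from the rest, and chance alone gives such a value in about 1 of 20 groups, or 3.9. Median UMIs of SST-high spots were 7574.5 in section 2 of the female of batch 1 and 9626 in section 1 of the female of batch 2, the highest of the sections of each specimen. The log2 ratio of SST-high to other spots stood apart in the female of batch 2 for *NEFH* (-1.71), *NEFL* (-1.36) and *NSG1* (-1.83), in each case the steepest drop of the 4 specimens. In the male of batch 2 it stood apart for *GFRA3*, at 0.81 the smallest rise, and for *NT5C1B* (-0.86). In the male of batch 1 it did so for *PRPH* (-0.028), the lowest of 4.

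The deposited table of section 3 of the male of batch 2, whose spots were not analysed here, lists 326 *SST* UMIs over its tissue spots.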

How the results depend on the processing

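Counts of called genes moved more than directions. Over all eligible spots the 515 calls became 248 with DESeq2, 1140 with every spot that has an *SST* UMI as SST-high, 75 with spots thinned to 1000 UMIs, 825 with sections as samples under a replicate block, and 1 with no block; leaving out a specimen or a section gave 290 to 532. In neuron-rich spots the 157 calls became 18 with 10% and 492 with 50% of spots by pan-neuronal share, 276 at the 90th percentile, 50 with DESeq2, 892 with every spot that has an *SST* UMI, 25 with limma-voom, 2 with no block, 47 with neurofilaments added to the list, 691 with sections under the replicate block, and 7 after thinning; leave-outs gave 45 to 185. The sections of one specimen are not independent animals, so the replicate block over sections overstates the number of samples. Between batches the 17 calls became 0 after thinning (240 genes at an unadjusted p under 0.05 by edgeR), and leave-outs gave 2 to 38. Between sexes the 2 calls became 4 with library sizes alone, 5 without a filter and 8 after thinning, and leave-outs gave 0 to 6. The difference in neighbouring shares stayed above 0 under each alternative run (1.5 to 8.27 points).

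Of 3232 values of single genes under alternatives, 2691 kept direction and call, 520 lost the call, 10 gained it and 11 reversed. Thinning reversed *SCN9A* (-0.062), *PIEZO2* (0.027), and in neuron-rich spots *FGF12* (0.31) and *TLCD3B* (0.11). Taking every spot with an *SST* UMI reversed *NGFR* (0.026), *PENK* (-0.21) and, in neuron-rich spots, *PTPN2* (0.10). The section block reversed *PRPH* (-0.0078), and the 10% of neuron-richest spots *SCN11A* (-0.019). Without section 4 of the female of batch 1 *PENK* reversed; leaving out a section or specimen moved it between -1.52 and 0.95 over all spots and between -0.96 and 2.77 in neuron-rich spots. Causes were not tested. *CCK* and *EDN3* stayed at or above 1.45 in each fit that tested them, *EDN3* lost its call over all spots with no block, and *CCK* fell below the count filter after thinning. Depth limits the itch genes *IL31RA*, *NPPB* and *OSMR*, which had 4 to 23 UMIs in SST-high spots.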
